A study of Mus musculus with 8 samples.

Results

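The genes described here encode proteins of the cytosolic ribosome, the particle that translates mRNA. They were taken by name: a gene was a member where the array annotation gave a probe set only that symbol and the symbol was Rpl, Rps or Rplp followed by a digit, or Rpsa, with the kinase genes named Rps6k and symbols marked as pseudogenes left out. This gave 50 genes of the 18193 named on the array, read by 106 probe sets, and the probe set of highest mean signal stands for each gene. Of the 50, 43 are proteins of the ribosome itself, 22 of the large subunit and 21 of the small. The other 7 are paralogs by name (Rpl22l1, Rpl39l, Rpl3l, Rpl7l1, Rps27l and Rps4l) and Rps19bp1, which encodes a protein that binds Rps19 and is no ribosomal protein.

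Livers came from mutant mice without Sirt1 (MT, sirt1 KO in the sample descriptions) at 3 months of age and from wild type (WT) mice in 3 age classes (3, 12 and 19 months), with 2 Affymetrix MOE430 2.0 arrays in each of the 4 groups. Mice of both genotypes were of a mixed 129/FVB/Black Swiss background, and all livers were taken in the morning. The mutant carries a targeted deletion in Sirt1, the gene of an NAD-dependent deacetylase, in every tissue, and most such mice die as embryos, so the MT animals are survivors. The study mentions more mice in a group than there are arrays, and none of the sources read here states if RNA of several mice was pooled, so p-values reflect only how far these arrays differ, part of which may be technical.

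Each ribosome holds 1 copy of nearly every ribosomal protein, and the mRNAs of these proteins are among the most abundant in a cell. In vertebrates their synthesis is adjusted mostly at translation: the mRNAs begin with a run of pyrimidines, the 5′ terminal oligopyrimidine (TOP) feature, through which mTOR signalling and Larp1 control their use by ribosomes. Hepatocytes make large amounts of plasma protein and hold many ribosomes. The arrays measure the level of the mRNA only.

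Promoter windows of 300 bases from RefSeq (GRCm38.p6) were at hand for 44 of the 50 genes. The TOP feature was looked for as an unbroken run of C or T that begins with C at the annotated start and spans at least 5 bases. It was present in 8 of the 44 genes (18.2%), against 3.01% of the 27025 genes in the table. These were Rpl14, Rpl35, Rpl38, Rplp2, Rps10, Rps18, Rps27 and Rps6. None of the 6 matched paralogs and Rps19bp1 had it. A run of at least 8 pyrimidines anywhere between 10 bases before and 20 bases after the start was present in 17 of the 44 genes (38.6%), against 13.0% of all genes. An annotated start that lies some bases away from the first base of the mRNA would be missed by the first count, and Rpl27a below has a run of 16 that begins with T. Windows of 30 bases, 10 before the start and 20 from it, are shown for 8 of the genes with the smallest p-values in the comparisons below, with Rps18 and Rps6 added after their sequences were seen as clear cases of the feature. Capitals mark the pyrimidine run that begins at the start.
Rpl7l1, chr17:46782637-46782666, minus strand: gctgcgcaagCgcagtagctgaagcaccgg
Rps19bp1, chr15:80264287-80264316, minus strand: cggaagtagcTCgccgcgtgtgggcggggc
Rpl39, chrX:37085203-37085232, minus strand: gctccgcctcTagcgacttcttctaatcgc
Rplp2, chr7:141447641-141447670, plus strand: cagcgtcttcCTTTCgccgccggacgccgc
Rpsa, chr9:120127756-120127785, plus strand: ttatttaaggacgtcatttccggccgcccg
Rpl27, chr11:101442235-101442264, plus strand: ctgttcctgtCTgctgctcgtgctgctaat
Rpl22l1, chr3:28805498-28805527, plus strand: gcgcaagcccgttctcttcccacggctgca
Rpl27a, chr7:109519185-109519214, plus strand: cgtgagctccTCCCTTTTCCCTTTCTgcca
Rps18, chr17:33955646-33955675, minus strand: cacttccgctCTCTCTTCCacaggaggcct
Rps6, chr4:86857348-86857377, minus strand: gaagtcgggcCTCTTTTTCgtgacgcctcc

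In the whole promoter window, on either strand, the core of ETS family sites (CCGGAAG) was present in 21 of the 44 genes (47.7%), against 9.93% of all genes, and the YY1 core (AAGATGGC) in 4 (9.09%), against 3.19%. A TATA box (TATAAA) was present in 6 (13.6%), against 15.7%. These are matches of letters, not sites shown to be bound.

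The deposited signals were MAS5 intensities, brought to 1 scale across arrays by the authors. The signals divide the 50 genes into 36 whose probe set had a mean log2 signal of at least 12 (the lowest is Rpl22l1 at 13.05) and 14 whose probe set lay clearly lower (the highest is Rpl37 at 11.15). The value of 12 was chosen after the signals were seen. The lower 14 hold 4 of the paralogs and Rps19bp1 but also 9 proteins of the ribosome, namely Rpl12, Rpl14, Rpl27a, Rpl37, Rpl39, Rps16, Rps25, Rps27 and Rps6. Signals of different probe sets are not compared as levels here. Rps16, a small subunit protein that contacts tRNA, was read only by a probe set with signals of 1.22 and 3.84 in MT livers and 1.18 to 1.54 on the WT arrays. Rpl39l (signals of 3.50 to 38.6 over all arrays), a paralog known from the testis, and Rpl3l (2.19 to 11.2), known from striated muscle, were also too low to be tested, which left 47 genes.

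Sirt1 was read by 1 probe set, with signals of 615 and 713 in MT livers and 589 and 539 in WT livers at 3 months (log2 difference 0.23, limma adjusted p = 0.674). It is not known here if that probe set overlaps the deletion, so it checks no label. All 10 hepatocyte markers on the array, among them Alb and Ttr, were above the filter on low values, as the label liver requires.

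The chosen probe sets of the ribosomal protein genes of high signal were among the steadier features of these livers. The SD of the log2 signal over all 8 arrays had a median of 0.101 over the 36 genes, with a lowest value of 0.0747 (Rpl7) and a highest of 0.334 (Rpl22l1). It was 0.175 over the 2053 tested probe sets of like signal and 0.274 over all 22519 tested probe sets. Like signal here and below means a mean log2 signal of at least 12. That set reaches lower than the 36 genes, whose lowest mean is 13.05, so the signals were not closely matched. The 11 tested genes of low signal had a median SD of 0.319. By their chosen probe sets, Rpl7, Rpl7a and Rps3a1 varied least. Other probe sets of a gene could vary more or less. Those of Rpl7 had an SD of 0.120 and 0.182, and another of Rps10 had 0.512. Another of Rpl13a had 0.049, below the 0.0765 of its chosen one. Rpl7a, a protein of the large subunit, gave signals of 29085 and 31223 in MT livers, 28681 and 30970 in WT livers at 3 months, 29866 and 33103 at 12 months and 28455 and 29119 at 19 months. The groups overlapped in every pair that includes WT at 3 months. Rps3a1, of the small subunit, stayed between 29856 and 34462 on all arrays, and Rpl7 between 20647 and 24095.

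MT mice were compared with WT mice of the same 3 months to ask what the loss of Sirt1 does to liver transcripts. None of the 47 tested genes passed, higher or lower, at a limma adjusted p of 0.05, where 0.515% of all tested probe sets did. The median log2 difference over the 47 genes was 0.010, against 0.018 over all tested probe sets, and 25 of the 47 lay above 0 (53.2%, against 52.3%). At an unadjusted p of 0.05, 3 genes were higher and 0 lower, where 7.28% and 6.18% of all tested probe sets were. The methods' t-test (unadjusted p under 0.05 and a fold over 1.5) gave 1 gene, where it gave 3.95% of all tested probe sets. That test took the thresholds of the study but was run here on log2 signals of all tested probe sets. The study's removal of probes called absent was not applied, so the counts are not those of the study. The arrays of the groups did not overlap for 7 genes that were higher in MT and 3 that were lower, where the shares over all tested probe sets were 24.0% and 21.7%.

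For the genes of high signal the data bound the size of any difference in the signal of the chosen probe set. Other probe sets of a gene are not covered by this. The chosen probe set of Rps10 differed by -0.15, where another, with a mean log2 signal of 13.6, differed by 0.50. The remaining tested ones of that gene had 0.033, 0.029 and -0.12. The median size of the log2 difference was 0.056 over the 36 genes, against 0.14 over tested probe sets of like signal, and the largest was 0.22. The 95% interval of the moderated test lay within 1.5-fold in both directions for 34 of the 36, where 67.2% of tested probe sets of like signal and 24.9% of all had so narrow an interval. The exceptions were Rplp0 (-0.74 to 0.31) and Rpl27 (-0.59 to 0.19). Differences under 1.5-fold were not measured as absent, since the interval of a typical gene such as Rpl19, at -0.37 to 0.19, holds values of either sign. In bulk liver a lower share of a cell type and less mRNA in each cell cannot be told apart.

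**Figure D1:**
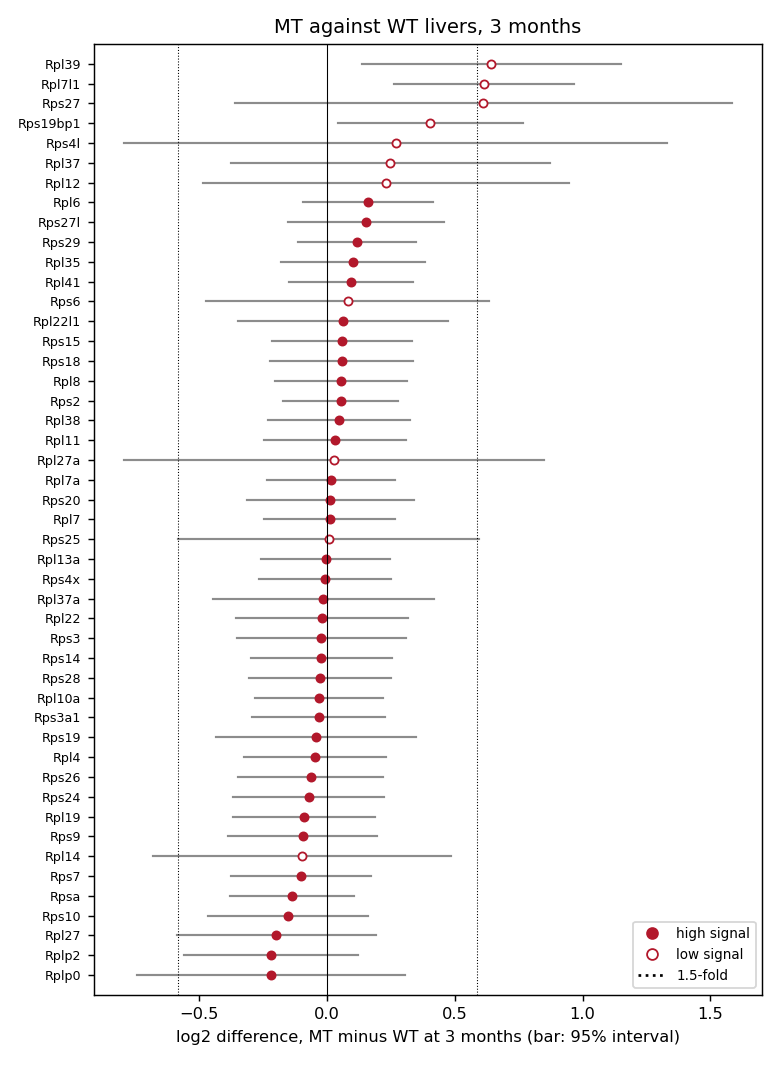
Log2 difference between MT and WT livers at 3 months (x axis) for each of the 47 tested genes (y axis, ordered by difference), with the 95% interval of the moderated test as a bar and 1.5-fold as dotted lines. Intervals of genes of high signal (filled) lie inside the dotted lines except for Rplp0 and Rpl27, and those of genes of low signal (open) are wider.

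The genes with the smallest p-values above 0 all had probe sets of low signal, and 2 of the 3 are not core ribosomal proteins. Rpl7l1, a relative of Rpl7, gave 1261 and 1519 in MT livers and 887 and 924 in WT livers. Both MT arrays lay above both WT arrays, and the log2 difference was 0.61 ± 0.16 (SE, limma adjusted p = 0.126, with 2 arrays in each group). Its other probe sets differed the same way, by 0.77 (adjusted p = 0.114) and 0.29 (adjusted p = 0.443). Rps19bp1, whose product has been described in human cells as a binding partner of SIRT1 as well as of RPS19, gave 1351 and 1396 in MT livers and 1105 and 975 in WT livers. The groups did not overlap, and the difference was 0.40 ± 0.16 (SE, adjusted p = 0.315). Rpl39, a very small protein at the exit tunnel of the large subunit, gave 696 and 532 in MT livers and 343 and 444 in WT livers, again without overlap (0.64 ± 0.23, SE, adjusted p = 0.257).

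Below 0 the smallest p-values belonged to genes of high signal. Rplp2, a protein of the stalk that recruits elongation factors, gave 21716 and 30135 in MT livers and 28568 and 30992 in WT livers. The low value came from MT array 1 alone, the groups overlapped, and the difference was -0.22 (adjusted p = 0.580). Rpsa, a small subunit protein also known as the laminin receptor, gave 18922 and 18168 in MT livers and 19942 and 20841 in WT livers. These did not overlap, with a difference of -0.14 (adjusted p = 0.637). Rpl27, of the large subunit, gave 11173 and 16745 in MT livers and 15055 and 16368 in WT livers (difference -0.20, adjusted p = 0.680), and its low value was again on MT array 1. Rplp0, the base of the stalk, gave 16363 and 17306 in MT livers and 17635 and 21755 in WT livers, with no overlap and the widest interval of the high-signal genes. The third stalk protein, Rplp1, was not analysed here.

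**Figure D2:**
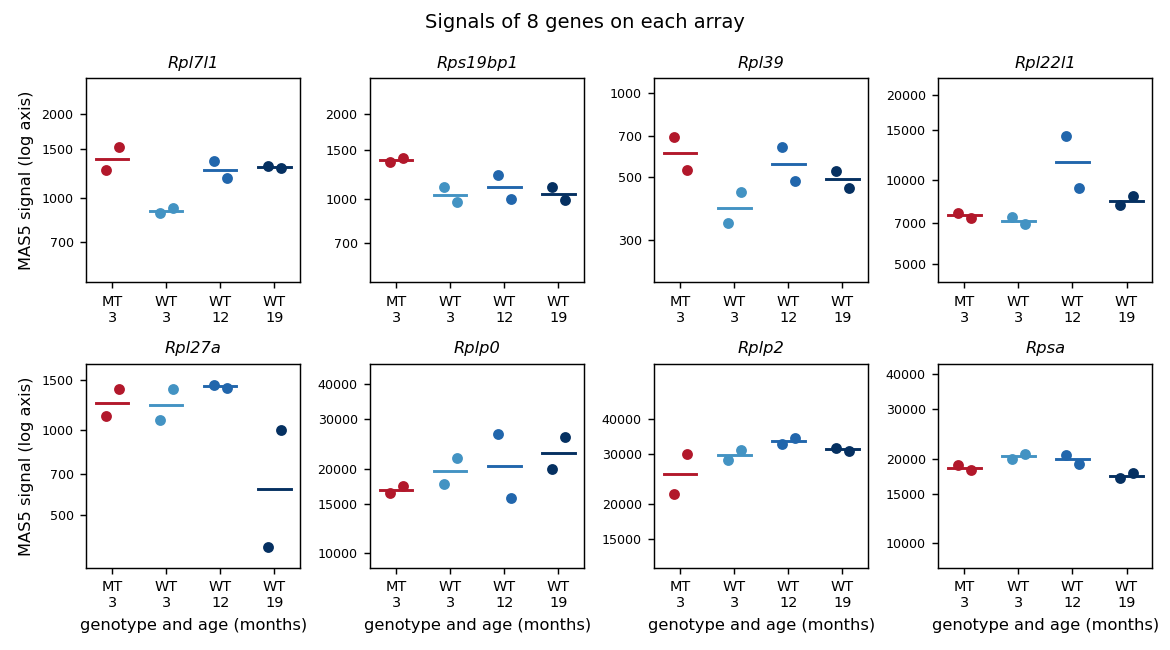
MAS5 signal (y axis, log scale) of 8 genes in MT livers at 3 months and WT livers at 3, 12 and 19 months, with arrays as points and geometric means of each pair as lines. Rpl7l1 lies at 887 and 924 in WT at 3 months, below the arrays of all other groups, and Rpl27a is low on 1 array at 19 months (384).

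MT array 1 stood apart for the genes of high signal. Between arrays 1 and 2 of the MT group their log2 difference had a median of -0.22, and 32 of the 36 genes were lower on array 1. Over all tested probe sets of like signal that median was -0.030. The shift was seen in the other groups at smaller size, with medians of -0.083 at 3 months, -0.12 at 12 months and -0.048 at 19 months in WT livers, where probe sets of like signal had medians of -0.0050, -0.019 and 0.022. MT array 1 was the lowest of all arrays for 17 of the 36 genes, and array 2 of the WT group at 12 months was the highest for 16. Each of the 36 genes correlated above 0 with the mean of the other 35 over the arrays (median r = 0.607, n = 8), from 0.0035 for Rps29 to 0.960 for Rps26. Without MT array 1 this held for 33 of the 36, with a median of 0.545 and a lowest r of -0.303 (Rplp0). The arrays share scaling and probe design, and pairs of these genes also share sequence with pseudogenes, so this is a description. On MT array 1 the log2 difference between the 3′ and the 5′ control probe set was the lowest of all arrays, at -0.62 for Gapdh, where the other arrays had -0.59 to -0.34, and at 0.97 for beta-actin, where they had 1.09 to 1.48. A low value means less excess of 3′ over 5′ signal. For pyruvate carboxylase MT array 1 had 3.878, close to the 3.883 of array 2 of the young WT group. There the highest value was 5.86, on array 1 at 19 months. The part of these differences in the shift was not tested. Without MT array 1 the median difference between MT and WT over the 47 genes was 0.11, and without MT array 2 it was -0.081. In the fit without MT array 1 Rpl27 stood at 0.093 and Rplp2 at 0.018.

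**Figure D3:**
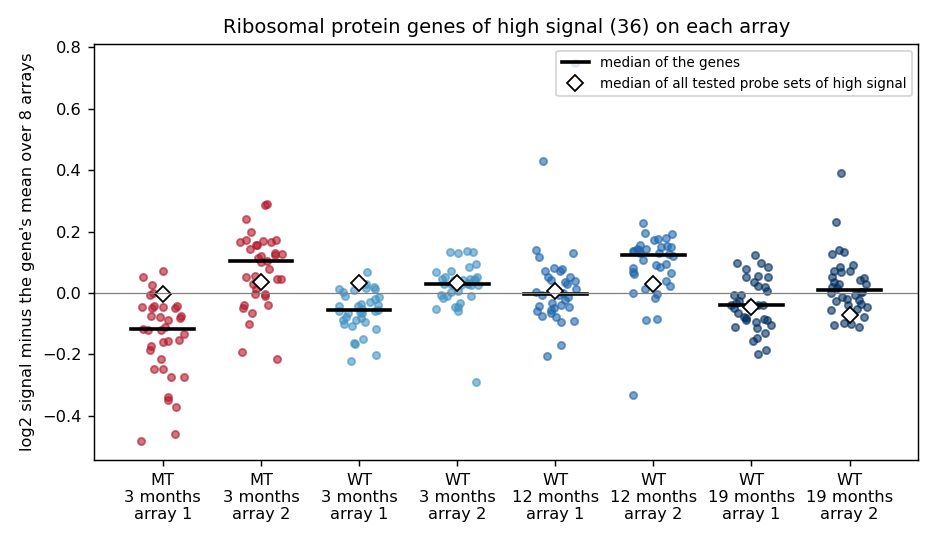
Log2 signal of each of the 36 genes of high signal minus its own mean over the arrays (y axis) on each array (x axis). Black lines are the medians of the genes and diamonds the medians of all tested probe sets of high signal. The genes lie mostly below 0 on MT array 1 (median -0.12) and above it on MT array 2 (0.10) and on array 2 at 12 months (0.12).

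Livers at 12 months were compared with those at 3 months in WT mice. Again 0 of the 47 genes passed in limma in either direction, where 0.0133% of all tested probe sets did, and at an unadjusted p of 0.05 there were 3 genes higher and 0 lower, where 4.01% and 4.57% of all tested probe sets were. The methods' t-test gave 0, and 2.23% of all tested probe sets. The members leaned to higher values at 12 months: 35 of 47 lay above 0 (74.5%, against 49.5% of all tested probe sets and 49.7% of those of high signal), with a median of 0.068 against -0.0034. Arrays did not overlap for 17 genes that were higher and 3 that were lower (19.3% and 20.8% over all tested probe sets). Array 2 at 12 months, with the highest values for 16 of the 36 high-signal genes, is 1 of the 2 arrays of this group. Without it the median was 0.024, without array 1 at 12 months 0.14, and without array 1 or 2 at 3 months 0.022 or 0.13.

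Rpl22l1 had the largest difference at 12 months. It is a paralog of Rpl22 that can take its place in the ribosome, and it gave 14262 and 9315 at 12 months, against 7367 and 6935 at 3 months. Array 1 at 12 months was the highest of all, both were above both young arrays, and the difference was 0.69 ± 0.18 (SE, adjusted p = 0.341). Without array 1 at 12 months it was 0.38. Its relative Rpl22 gave 22823 and 25221 at 12 months, against 23198 and 24849 at 3 months, which overlap. Rpl7l1, at 1355 and 1181 against 887 and 924, differed by 0.48 (adjusted p = 0.451), and Rpl39, at 640 and 485 against 343 and 444, by 0.52 (adjusted p = 0.577). Neither pair of groups overlapped, and Rpl39 stood at 0.32 without array 1 at 12 months. For Rpl7l1 the other probe sets gave 0.51 and -0.039. On the lower side were Rps25, needed for some viral modes of initiation, at 118 and 143 against 174 and 171 (-0.41, adjusted p = 0.717), and Rps20, at 27595 and 29956 against 32083 and 34900 (-0.22, adjusted p = 0.726). Rps14, known from human anaemia with loss of a chromosome arm, followed with -0.072 (adjusted p = 0.921).

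Livers at 19 months were set against both younger WT groups. Against 3 months 0 of 47 genes passed in limma (0.0355% of all tested probe sets), with 1 gene higher and 1 lower at an unadjusted p of 0.05 (7.18% and 5.3% of all tested probe sets) and 0 by the methods' t-test (3.33%). The median was 0.013, against 0.024 over all tested probe sets, and was 0.13 with quantile normalization, and 25 of 47 genes lay above 0 (53.2%, against 53.0%). Over the 36 genes of high signal the median was -0.013, where tested probe sets of like signal had -0.094. Arrays did not overlap for 11 genes that were higher and 8 that were lower (26.4% and 21.8% over all tested probe sets). The interval lay within 1.5-fold for 34 of the 36 (66.9% of tested probe sets of like signal, 25.6% of all), with Rplp0 and Rpl22l1 as exceptions.

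Rpl27a, of the large subunit, had the lowest value at 19 months, with signals of 1084 and 1393 at 3 months, 1449 and 1415 at 12 months and 384 and 999 at 19 months. Both old arrays lay below all others, but they differed from each other by more than the younger groups differed among themselves. The difference was -0.99 ± 0.36 (SE, adjusted p = 0.332) from 3 months and -1.21 ± 0.36 (adjusted p = 0.313) from 12 months, and without array 1 at 19 months it was -0.30 from 3 months and -0.52 from 12 months. The second probe set of Rpl27a had signals of 5.56 to 59.4 and was too low to be tested. Rpsa gave 17051 and 17721 at 19 months, against 19942 and 20841 at 3 months (-0.23, adjusted p = 0.428), and did not overlap with either younger WT group. Rpl41, the shortest of these proteins, gave 32509 and 33464, against 35770 and 35744 (-0.12, adjusted p = 0.710), and this sign turned with quantile normalization (0.027) and in 2 of the other probe sets of the gene (0.14 and 0.28).

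On the higher side Rpl7l1 came first again, with 1309 and 1279 at 19 months, against 887 and 924 at 3 months (0.52 ± 0.16, SE, adjusted p = 0.263). Its other probe sets gave 0.67 (adjusted p = 0.246) and 0.066. The 3 comparisons with 3 months share the same pair of young arrays, and Rpl7l1 was low on both of these. Rpl8, of the large subunit, gave 17161 and 17025, against 14323 and 15381 (0.20, adjusted p = 0.519), and Rps7, a small subunit protein that also binds Mdm2, gave 27596 and 31275, against 24701 and 27139 (0.18, adjusted p = 0.591). Both were without overlap.

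Between 19 and 12 months 0 of 47 genes passed in limma, as did 0.0% of all tested probe sets, and at an unadjusted p of 0.05 there were 0 genes higher and 2 lower (6.39% and 4.35% of all tested probe sets), with 0 by the methods' t-test (2.33%). The median was -0.072, against 0.034 over all tested probe sets and -0.078 over those of high signal, and it was 0.050 with quantile normalization. Above 0 were 15 of the 47 (31.9%, against 54.4% of all tested probe sets), and over tested probe sets of high signal, as most of these genes are, the share was 36.4%. The 16 genes that were lower without overlap (34.0% of the 47, against 17.5% of all tested probe sets and 34.3% of those of high signal) included Rps2, at 35980 and 35782 against 40849 and 43073 (-0.23, adjusted p = 0.468), and Rpl22l1, at 8113 and 8738 against 14262 and 9315 (-0.45, adjusted p = 0.423, and -0.15 without array 1 at 12 months). Higher without overlap were 6 genes (23.8% of all tested probe sets, 14.7% of those of high signal). Among them Rpl12, at the base of the stalk, differed by 0.48 (adjusted p = 0.625), Rpl37 by 0.46 (adjusted p = 0.588) and Rps25 by 0.40 (adjusted p = 0.625), all from probe sets of low signal. Each rests in part on 1 array, as Rpl12 stood at 0.17 without array 1 at 12 months, Rpl37 at 0.26 without array 1 at 19 months and Rps25 at 0.16 without array 2 at 19 months.

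**Figure D4:**
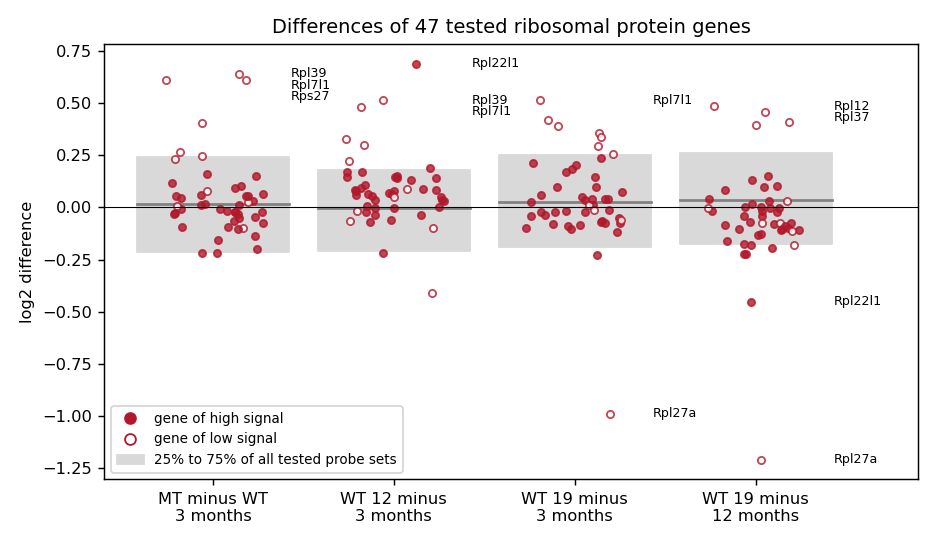
Log2 difference (y axis) of each of the 47 tested genes in the 4 comparisons (x axis), filled for genes of high signal and open for low signal, with the interquartile range of all tested probe sets in grey and their median as a grey line. The genes of high signal keep close to 0 except for Rpl22l1, and the genes beyond 0.45 in size are named.

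Ordered by group mean, the 36 genes of high signal had their highest mean in MT livers in 7 cases, and in WT livers in 3 cases at 3 months, 17 at 12 months and 9 at 19 months. The lowest mean was in MT livers in 14 cases, and in WT livers in 6 at 3 months, 2 at 12 months and 14 at 19 months. The median of the group differences was smaller in size than the SD of the median between arrays of a group, 0.0961, in all 4 comparisons. The arrays of the other tested paralogs overlapped between MT and WT livers at 3 months. Rpl22l1 gave 7631 and 7300 in MT livers and 7367 and 6935 in WT livers, Rps27l, known as a p53 target in human cells, gave 28271 and 35261 in MT livers and 28021 and 28853 in WT livers, and Rps4l, a relative of Rps4x, gave 161 and 121 in MT livers and 65.8 and 204 in WT livers. Rps27, which varied much in the low class, gave 271 and 784 in MT livers and 269 and 339 in WT livers, so its difference came from 1 array.

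The subunits had like values, with no test between them. In MT against WT livers the 22 tested proteins of the large subunit had a median of 0.013 and the 20 of the small subunit -0.022. At 12 against 3 months the medians were 0.065 and 0.054, at 19 against 3 months 0.040 and -0.025, and at 19 against 12 months -0.058 and -0.072. The 8 genes with the TOP feature had a median of 0.052 in MT against WT, where the other 33 tested genes with a window had -0.0088, and at 12 against 3 months these medians were 0.062 and 0.077. Of the 8, Rpl14, Rps27 and Rps6 have probe sets of low signal, a class with a median of 0.25 in MT against WT. The SD over the arrays had a median of 0.180 for the 8 and 0.123 for the others. Tested genes of low signal also had the larger SD, with a median of 0.319, against 0.101 for those of high signal. The part of signal class in the SD of the 8 was not tested. The split follows the annotated starts, so the others may carry the feature too. For 20 genes more than 1 probe set was tested. Their probe sets gave opposite signs for 10 of the 20 in MT against WT, the median gap between the highest and lowest value of a gene was 0.17, and the widest was 0.66 (Rps10), where the median size of the difference over the 47 genes was 0.064.

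Genes that build the ribosome were taken from a fixed list beside the members, and here the values leaned one way in MT livers. Of 74 tested biogenesis factors, 0 passed in limma, 61 lay above 0 (52.3% of all tested probe sets did) and the median was 0.28, where the ribosomal proteins had 0.010. At an unadjusted p of 0.05, 22 were higher (29.7%, against 7.28% of all tested probe sets) and 0 lower. The summed signal of the list was 85015 and 83782 in MT livers and 71436 and 71341 in WT livers at 3 months. The median was 0.24 without MT array 1 and 0.32 without array 1 of the young WT group. Nop56, a core protein of box C/D snoRNPs that guide rRNA methylation, gave 710 and 741 in MT livers and 300.4 and 313 in WT livers, a difference of 1.24 ± 0.22 (SE, adjusted p = 0.0528). Utp18, of the small subunit processome, gave 594 and 635 in MT livers and 393 and 350.3 in WT livers (0.73 ± 0.17, SE, adjusted p = 0.0981). In WT mice the same list had a median of 0.13 at 12 months and 0.24 at 19 months against 3 months, with 55 of 74 above 0 each time (49.5% and 53.0% of all tested probe sets) and 8 and 12 higher at an unadjusted p of 0.05 (4.01% and 7.18%), and of 0.045 at 19 against 12 months. All of these comparisons but the last share the young WT arrays. In each comparison among WT livers 0 of the 74 factors passed in limma. Of the further factors named by the rule, Rrs1 had 1244 and 1550 at 12 months, against 793 and 923 at 3 months (0.70, adjusted p = 0.417). Nop16 had 1003 and 1137 at 19 months, against 663 and 593 at 3 months (0.77, adjusted p = 0.251). Nop10 had 6798 and 6843 at 19 months, against 8476 and 9817 at 12 months (-0.42, adjusted p = 0.297). Polr1d had 1970 and 2059 at 19 months, against 3337 and 3222 at 12 months (-0.70, adjusted p = 0.3004).

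**Figure D5:**
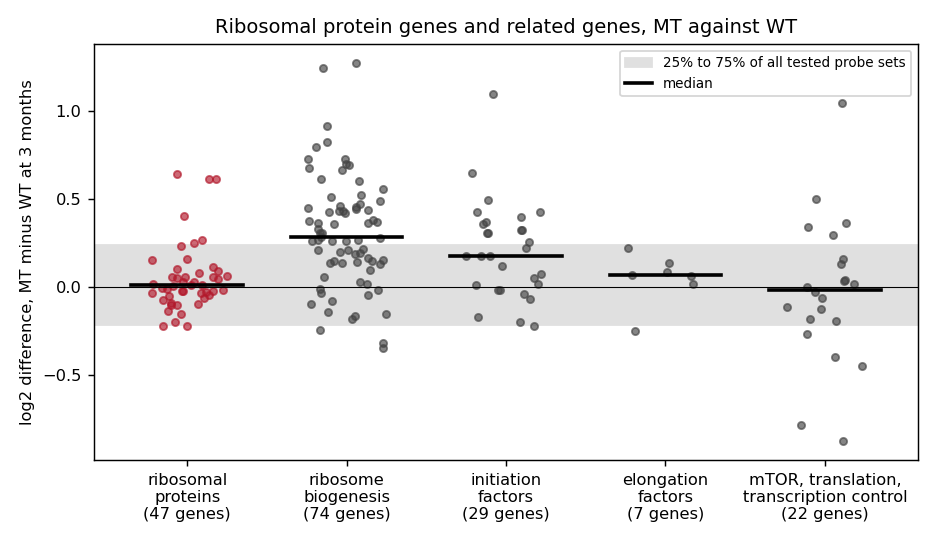
Log2 difference between MT and WT livers at 3 months (y axis) of the 47 tested ribosomal protein genes and of 4 lists of related genes (x axis), with a point for each gene, black lines at the medians and the interquartile range of all tested probe sets in grey. Ribosomal protein genes centre on 0.010 and biogenesis factors on 0.28.

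Of 29 initiation factors 0 passed in any comparison. In MT against WT livers 22 lay above 0 (52.3% of all tested probe sets), with a median of 0.18 and 8 higher and 0 lower at an unadjusted p of 0.05 (7.28% and 6.18% of all tested probe sets). Eif2b3 and Eif2b4, subunits of the exchange factor that recharges eIF2, gave the smallest p-values: Eif2b3 had 797 and 583 in MT livers and 324 and 316 in WT livers (1.09, adjusted p = 0.0689), and Eif2b4 had 1568 and 1480 in MT livers and 1023 and 926 in WT livers (0.65, adjusted p = 0.0943). The elongation factor list has 7 genes, most with mRNAs that also carry the TOP feature, and includes Tpt1 and Eef1e1 beside the factors proper. It had a median of 0.070 in MT against WT, which is the value of Tpt1. The medians were 0.010 at 12 and 0.00055 at 19 months against 3 months, with 0 passing. Of 22 genes of mTOR signalling, of translation control and of the transcription of ribosomal components 0 passed, and the median in MT livers was -0.015. Among them Maf1, a repressor of RNA polymerase III, gave 528 and 535 in MT livers and 954 and 876 in WT livers (-0.78, adjusted p = 0.0757), and Eef2k, the kinase that slows elongation, gave 374 and 444 in MT livers and 153 and 255 in WT livers (1.04, adjusted p = 0.137). Fau, which encodes a small subunit protein under another name, differed by 0.027 in MT against WT.

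Lists of markers of liver cell types were read in the same comparisons, where the 47 ribosomal protein genes had medians of 0.010 in MT against WT and of 0.068 at 12 and 0.013 at 19 against 3 months. In MT against WT livers the 3 tested of 7 neutrophil markers had a median of 0.84 (summed signal of all 7, 1213 and 1499 in MT livers and 958 and 854 in WT livers), with Ngp, Ltf, Camp and Elane too low to be tested. The 12 Kupffer cell and macrophage markers had one of -0.28, with 10 below 0 and a summed signal of 24051 and 26382 in MT livers and 32596 and 31517 in WT livers. The 5 tested of 9 T and NK cell markers had one of -0.59, with 4 below 0 and a highest value of 0.81. At an unadjusted p of 0.05, 2 of them were lower (6.18% of all tested probe sets). The summed signal of this list was 607 and 587 in MT livers and 806 and 954 in WT livers. Its markers Cd3d, Cd3e, Cd8a and Cd4 were too low to be tested. The 10 hepatocyte markers had a median of 0.12, with 9 above 0, and the 9 endothelial markers one of -0.097. At 12 against 3 months the hepatocyte and endothelial markers had medians of 0.021 and 0.019. The 6 tested B and plasma cell markers had one of 0.89, with 1 of them called higher. The tested T and NK cell markers had one of -0.40, the neutrophil markers one of 0.24 and the Kupffer cell and macrophage markers one of -0.14. At 19 against 3 months all 12 Kupffer cell and macrophage markers were above 0 (median 0.65), with a summed signal of 38619 and 61088 at 19 months, against 31517 to 32596 at 3 months. The 6 tested B and plasma cell markers were all above 0 there, while Cd79a and Pax5 were too low to be tested. Of the 6, 1 was called (0.0355% of all tested probe sets), and their median was 1.64. The hepatocyte markers had one of -0.21, with 8 of 10 below 0, and the endothelial markers one of -0.0047. At 19 against 3 months the 3 tested neutrophil markers were all above 0, as in MT livers. Their median was 1.11, and 2 were higher at an unadjusted p of 0.05 (7.18% of all tested probe sets). All 7 summed to 1696 and 2028 at 19 months, against 958 and 854 in WT livers at 3 months. Between 19 and 12 months, where the ribosomal protein genes had a median of -0.072, the 12 Kupffer cell and macrophage markers had 0.70. All 12 were above 0, and 10 were higher at an unadjusted p of 0.05 (6.39% of all tested probe sets). The 10 hepatocyte markers had a median of -0.19, with 9 below 0, and the 9 endothelial markers 0.13. The tested B and plasma cell, neutrophil and T and NK cell markers had 0.82, 0.90 and 0.11. The part of these cells in the values of the ribosomal protein and biogenesis genes was not tested.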

How the data were processed

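Liver RNA of 4 groups was read on 8 arrays. The deposited table holds linear MAS5 signal intensities per probe set, which the authors scaled so that the mean between the 2nd and 98th percentile was equal on all arrays; per the labels the tool was MAS5, with no version given in the sources used here. Groups came from the sample descriptions. Signals under 1 were set to 1 and put on the log2 scale. Of 45037 probe sets without controls, those in the upper 50% by mean (22519, with a mean log2 signal from 6.18) entered a single limma model of all groups (lmFit, then eBayes with trend, of limma 3.58.1 under R 4.3.3, with 4 residual and 5.37 prior degrees of freedom). The two-sided p-values of a comparison were adjusted over all tested probe sets (Benjamini-Hochberg, threshold 0.05). With 2 arrays against 2 the smallest exact permutation p is 0.333, so that test was not run. The fit was tried on simulated arrays with independent noise for each probe set. The planted changes were larger than the member medians and no shift was shared between genes, so this does not bear on the small differences here. Python 3.11.15, pandas 2.3.3 and matplotlib 3.10.9 were used for tables and plots.

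The members and lists were chosen with earlier results of these data known. Named genes were, in each comparison, the 3 members of smallest unadjusted p in each direction, stalk proteins, Rpsa, paralogs, Rps19bp1, the 5 members of largest and 3 of smallest SD and, of each related list, the 2 genes of smallest p. Of the representative probe sets 14 end in _x_at and may bind other sequences too, as the many ribosomal protein pseudogenes; 16 end in _a_at, 2 in _s_at and 18 in _at alone. A further 110 probe sets with several symbols, at least 1 of them fitting the rule, were not used. Rpl7, Rpl8, Rps14, Rps20, Rps29 and Rps4l had no promoter window at hand. The number of arrays limits the precision. Alternatives covered normalization, log offset, filter, groups in the fit, variance trend, test, threshold, replicate block, the probe set that stands for a gene, and the removal of each array in turn.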

Additional observations from a re-analysis of the deposited data

How the results depend on the processing

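Of 24 alternatives, 1 was added after the data were seen (genes of high signal only). The count of genes called stayed at 0 in limma under all of them in all 4 comparisons, and was 1 (Rpl7l1) only with the methods' unadjusted t-test in MT against WT. Leaving out 1 array gave 0 calls throughout, and moved the median log2 difference over the 47 genes between -0.081 and 0.11 in MT against WT, 0.022 and 0.14 at 12 against 3 months, -0.012 and 0.061 at 19 against 3 months and -0.091 and -0.0057 at 19 against 12 months. Quantile normalization gave a median of 0.13 at 19 against 3 months and 0.050 at 19 against 12 months, where the authors' scaling gave 0.013 and -0.072, so the direction between the older groups depends on the scaling. Plain _at probe sets alone (20 genes) gave 0.12 at 19 against 3 months. Over 24 pairs of a named gene and a comparison, 484 of the alternative values kept direction and side of the threshold, 1 passed (Rpl7l1, the methods' t-test), and 7 changed sign. Leaving out 1 array, Rpl27 ranged from -0.49 to 0.093 and Rplp2 from -0.45 to 0.018 in MT against WT, the values above 0 being those without MT array 1. At 19 against 3 months Rpl41 was at 0.027 with quantile normalization, 0.28 with its probe set of lowest signal, 0.066 as the mean of its probe sets and 0.14 with plain _at probe sets, and Rpl27a was at 0.37 as the mean of its probe sets, which gives its probe set of very low signal equal weight. The cause of the other changes was not tested.

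Replicate numbers in the labels name no shared litter or day. Over all tested probe sets, deviations of same-numbered arrays correlated at 0.040 in MT against WT, 0.042 at 12 and -0.0089 at 19 against 3 months and 0.14 at 19 against 12 months. Over the members these values were -0.0098, 0.058, 0.22 and -0.052. The lower medians of the high-signal genes on array 1 of each group, given above, were not tested against the replicate number. With the replicate number as a block, 0 genes were called in each comparison, and the medians were 0.010, 0.068, 0.013 and -0.072, which the block cannot change, since each group holds 1 array of each number.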
